A study of Sus scrofa with 30 samples.

Results

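The comparison of all pregnant with all cyclic gilts took in the 30 small RNA libraries of the series, 16 from pregnant (P) and 14 from cyclic (C) animals, and asked which microRNA (miRNA) sequences of the endometrium differed by reproductive status across D12, D16 and D20 together. Members were taken by their labels, pregnancy or estrous cycle, so the comparison holds 30 of 30 libraries, namely 5 PD12, 5 PD16 and 6 PD20 libraries beside 4 CD12, 5 CD16 and 5 CD20 libraries. All animals were Hampshire x Duroc crossbred gilts of 7 to 8 months from 1 herd, the pregnant ones inseminated and the cyclic ones not, with no other treatment and 1 library per animal. The tissue was whole endometrium collected after slaughter, from implantation sites with the conceptus dissected away on D20 and after flushing of conceptuses at the earlier days. Libraries held between 2029729 and 6402731 reads (median 3111079), with medians of 3159556 reads in P and 2905306 reads in C, and between 75.3% and 87.2% of these reads matched exactly 1 of the 873 sequences of the study's list of annotated sequences. Of these sequences 776 were read in every library. All levels are given as CPM, annotated read counts scaled to library size with TMM factors, and a change is the day-adjusted log2 fold change (log2FC, P minus C). PD20 replicate 1 and CD16 replicate 3 stood apart in their makeup. CD16 replicate 3 had the highest share of annotated reads, 87.2%, and of 22 nt reads, 58.8%. Its sum of miR-10 and miR-196 sequences, 584462 CPM, was the highest too. In PD20 replicate 1, 41.0% of the annotated reads were sequences of miR-143 and miR-145, of smooth muscle and stroma, against 6.70% to 16.5% in the other 29 libraries, and its sum of muscle sequences (mainly miR-1) was 40186 CPM, against at most 16765 CPM in the others, in CD16 replicate 5. In bulk tissue, fewer cells of a type and less RNA per cell cannot be told apart.

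A mature miRNA guides a silencing complex to messenger RNAs mainly by its seed, the bases 2 to 8 from the 5' end. An isomiR is a form of the same miRNA cut or extended at an end, and a change at the 5' end moves the seed while a change at the 3' end does not. In the pig the conceptus signals with estrogen around the second week of pregnancy, the luteal phase is then maintained, and the trophoblast attaches to the uterine lining, whereas cyclic animals go through regression of the corpus luteum and approach a new estrus over the same days.

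Sequences on which the differences turned are shown 5' to 3' as deposited reads, with T for U and with the seed in capitals. Here 3' ADD 1 means 1 base more at the 3' end than the annotated canonical form, and 5' DEL 1 means 1 base fewer at the 5' end. The first set holds forms of miR-10a-5p that were lower in P, under 3 of the 4 seeds of its annotated forms, and for comparison miR-10b, which did not pass and differs by 1 substitution, T12A from miR-10a-5p to miR-10b counted from the 5' end.
miR-10a-5p: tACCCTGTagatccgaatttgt
miR-10a-5p 3' ADD 1: tACCCTGTagatccgaatttgtg
miR-10a-5p 3' ADD 2: tACCCTGTagatccgaatttgtgt
miR-10b: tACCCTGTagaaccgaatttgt
miR-10a-5p 5' DEL 1, 3' ADD 1: aCCCTGTAgatccgaatttgtg
miR-10a-5p 5' ADD 1, 3' ADD 1: aTACCCTGtagatccgaatttgtg
The second set holds members of the miR-30 family that were higher in P. Its first pair shares a seed and differs by T12C from the miR-30a-5p form to miR-30d, and the third, with a shifted seed, lacks 2 bases at the 5' end.
miR-30a-5p 3' ADD 2: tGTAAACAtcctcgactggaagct
miR-30d: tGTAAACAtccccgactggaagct
miR-30a-5p 5' DEL 2, 3' ADD 2: tAAACATCctcgactggaagct
The third set holds miR-205, the 1 sequence that passed the test of status by day interaction, and miR-302, read on D20 alone. It also holds 2 short miR-23 forms shown beside miR-27a. The 3' DEL 2 form is assigned to miR-23a, whose gene neighbours that of miR-27a, while the 3' DEL 3 form is common to miR-23a and miR-23b.
miR-205: tCCTTCATtccaccggagtctg
miR-302: tAAACGTGgatgtacttgcttt
miR-27a: tTCACAGTggctaagttccgc
miR-23a 3' DEL 2: aTCACATTgccagggattt
miR-23a 3' DEL 3: aTCACATTgccagggatt

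Across the 3 days P differed from C in few sequences. With the edgeR quasi-likelihood F-test and day as a block, 24 of 873 sequences passed an adjusted p of 0.05 (2.75%), 10 of them higher (1.15%) and 14 lower in P (1.6%), and 17 of these also changed by more than 1 on the log2 scale (1.95%), 6 higher (0.687%) and 11 lower (1.26%). This balance depended on scaling and filter, with 5 higher and 3 lower when library size was taken from all deposited reads, 1 higher and 7 lower at a minimum of 10 CPM, and 19 higher and 7 lower over all deposited sequences. Forms of 3 miRNA families made up most of the 24, with 10 forms of miR-10a-5p, all lower, 4 forms of miR-30a-5p and miR-30d, all higher, and 3 forms of miR-205, all lower. The others were 2 short forms of miR-23a, of which 1 is shared with miR-23b, a 20 nt form of mir-181a-1, rno-miR-200c-3p, miR-302 and let-7c 3' DEL 2 among the higher, and miR-27a among the lower, of which let-7c 3' DEL 2 was named after its values were seen. Canonical sequences accounted for 5 of the 24 and other forms for 19, a split close to the 178 and 695 among all 873 tested. The median log2FC of all sequences was 0.0062, and 441 of 873 (50.5%) were above 0. No sequence separated all 16 P from all 14 C libraries. Without PD20 replicate 1, 13 sequences passed and 9 were called. The 11 that then missed the threshold kept their direction, with adjusted p between 0.0511 and 0.0762, and were canonical miR-10a-5p and 4 of its forms, miR-205 and its 3' ADD 1 form, miR-27a, miR-30d 3' DEL 1, miR-30a-5p 5' DEL 2, 3' ADD 2 and let-7c 3' DEL 2. Of 21 named sequences among the 24, 13 missed the threshold when all deposited sequences were tested (adjusted p 0.0505 to 0.100) and 10 when library size was taken from all deposited reads (adjusted p 0.0584 to 0.118), all with the same direction. With the replicate number as a block, 15 of the 21 missed it (adjusted p 0.0502 to 0.152), among them miR-30d, miR-205 and canonical miR-10a-5p. The count rested in part on D20, since without the D20 libraries 1 sequence was called, and on single libraries, with between 5 and 35 sequences called when 1 of the 30 was left out. The lowest count, 5, came without CD16 replicate 3, and 16 of the 24 sequences then missed the threshold.

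The miR-10a gene lies in the HOXB cluster beside HOXB3 and HOXB5, and the miR-10b gene in the HOXD cluster between HOXD8 and HOXD3, in the RefSeq annotation of Sscrofa11.1. The miRNAs follow the HOX genes of the trunk and are known in the reproductive tract and in endometrial stroma. All 21 annotated forms of miR-10a-5p had a log2FC below 0, with a median of -1.16, and 19 of them had an unadjusted p under 0.05, against 84 lower sequences (9.62%) among all tested. Canonical miR-10a-5p ranged from 8279 to 106216 CPM in P, with a median of 20307, and from 19001 to 226633 CPM in C, with a median of 58343. The ranges overlapped broadly, but 15 of 16 P libraries lay below the cyclic median of their day. Such counts, here and below, come from the same libraries that picked the sequences and add no support to the changes. Its mean was 29121 ± 26191 CPM in P (SD, n = 16) and 77923 ± 61246 CPM in C (SD, n = 14), a log2FC of -1.39 (SE 0.39, adjusted p = 0.0406). On D12, D16 and D20 its log2FC was -1.33, -1.56 and -1.28. PD16 replicate 1, at 106216 CPM, and PD20 replicate 4, at 59816 CPM, stood apart from their groups, and CD16 replicate 3 held the highest level of all. Without PD16 replicate 1 the log2FC of the canonical form was -1.76 (adjusted p = 0.00563), without PD20 replicate 4 it was -1.61 (adjusted p = 0.0195), and without CD16 replicate 3 it was -1.20 (adjusted p = 0.110). The canonical form missed the threshold in 19 of 30 fits that left out 1 library, and also with library size from all deposited reads (adjusted p = 0.118), over all deposited sequences (adjusted p = 0.100), with the days weighted equally (adjusted p = 0.0515) and with a term for the title number (adjusted p = 0.0857), with a log2FC below -1 in each of these 4.

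The form with the lowest p of the whole table was a rare isomiR, miR-10a-5p 5' ADD 1, 3' ADD 1, whose seed is shifted by 1 base. In P it ranged from 3.32 to 16.7 CPM with a median of 6.84, and in C from 7.24 to 36.4 CPM with a median of 15.3. All 16 P libraries were below the cyclic median of their day. On D12 the highest P library, at 16.7 CPM, was below the lowest C library, at 18.6 CPM. The same held on D16, with 8.09 and 8.77 CPM, while the groups overlapped on D20. Groups that do not overlap were seen for 2.18% of all sequences on D12, 1.72% on D16 and 4.81% on D20. Its log2FC was -1.25 (SE 0.22, adjusted p = 0.00123), with -1.30, -1.34 and -1.14 on the 3 days, and it was the 1 sequence still called without D20 (log2FC -1.34, adjusted p = 0.0280).

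Abundant forms extended by 1 base at the 3' end differed by less, but with less spread. miR-10a-5p 3' ADD 1 ranged from 1362 to 3303 CPM in P (median 1951) and from 1845 to 5528 CPM in C (median 3866), and again none of the 16 P libraries exceeded the cyclic median of its day. Its log2FC was -0.78 (SE 0.18, adjusted p = 0.0126). miR-10a-5p 5' DEL 1, 3' ADD 1 ranged from 856 to 2282 CPM in P (median 1403) and from 1153 to 4672 CPM in C (median 2860). P and C overlapped between 1153 and 2282 CPM, and the log2FC was -0.92 (SE 0.20, adjusted p = 0.0109). The forms called with the largest change were 5' ADD 1, 3' ADD 2 (log2FC -1.60), 5' DEL 1, 3' ADD 2 (log2FC -1.59) and 3' ADD 2 (log2FC -1.54), with adjusted p of 0.0109, 0.0390 and 0.0296. Of these, the first passed in all 30 fits that left out 1 library, the second in 12 and the third in 18. 5' ADD 1 was called as well (log2FC -1.21, adjusted p = 0.0230), and so was 5' ADD 1, 3' DEL 2 (log2FC -1.16, adjusted p = 0.0406), while 5' ADD 1, 3' DEL 1 passed with a smaller change (log2FC -0.78, adjusted p = 0.0406), both named after their values were seen. With 1 library left out, these 3 passed in 28, 13 and 14 of 30 fits.

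**Figure D1:**
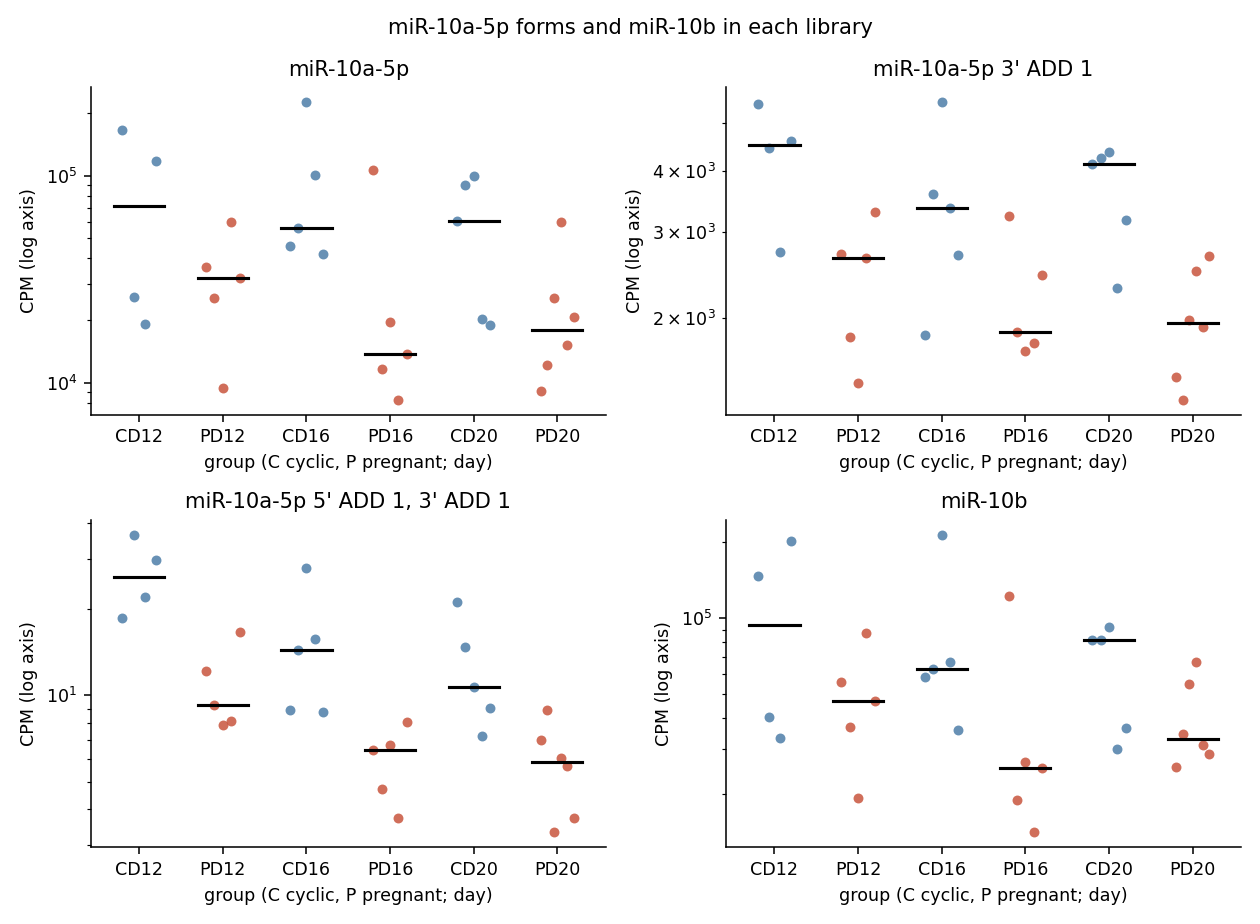
Level of miR-10 family forms in each library, in CPM on a log axis, by group (C cyclic, P pregnant; days 12, 16 and 20), with 1 point per library. Canonical miR-10a-5p spans a wide range within groups, from 8279 to 106216 CPM in P, while its 5' ADD 1, 3' ADD 1 form spans 3.32 to 16.7 CPM in P and separates P from C on D12 and D16.

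miR-10b, with the same seed and nearly the same sequence, passed in none of its 11 forms. Canonical miR-10b was at 43435 ± 28798 CPM in P (SD, n = 16) and 84608 ± 61136 CPM in C (SD, n = 14), a log2FC of -0.94 (SE 0.32, adjusted p = 0.0983). Of the 11 forms 5 had an unadjusted p under 0.05, all lower, against 9.62% lower among all sequences. The difference between miR-10a-5p and miR-10b itself was not tested.

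The forms of both miRNAs were set side by side by their last base, with no test of the difference between them. The 13 miR-10a-5p forms that end in T had a median log2FC of -1.16 and a median within-group SD of 1.12 on the log2 scale, and the 6 forms that end in G had -0.78 and 0.54. For miR-10b the 7 forms ending in T had a median of -0.91 (within-group SD 0.89), and the 4 ending in G had -0.09 (within-group SD 0.49). Thus miR-10b 3' ADD 1 had 6959 ± 2256 CPM in P and 7932 ± 3645 CPM in C, a log2FC of -0.16 (adjusted p = 0.725), and miR-10b 5' DEL 1, 3' ADD 1 a log2FC of -0.13 (adjusted p = 0.739). Summed over forms, miR-10a-5p ending in T was at 38443 ± 34963 CPM in P and 104285 ± 81944 CPM in C, and ending in G at 4022 ± 1138 CPM in P and 7045 ± 2269 CPM in C. For miR-10b the sum ending in T was 51032 ± 34118 CPM in P and 99821 ± 71981 CPM in C, and that ending in G 10358 ± 3246 CPM in P and 11458 ± 4851 CPM in C. The latter pair went opposite ways by day, with 9035 ± 2373 CPM in PD12 and 16259 ± 4575 CPM in CD12, but 12418 ± 3534 CPM in PD20 and 9619 ± 3162 CPM in CD20, with no test of these sums. Single forms departed from these medians, as miR-10a-5p 5' ADD 1, 3' ADD 1, which ends in G, had a log2FC of -1.25, and miR-10b 3' DEL 2, which ends in T, a within-group SD of 0.46. Over all sequences, the 340 ending in T had a median log2FC of -0.06 and those ending in G of 0.0049, with within-group SDs of 0.68 and 0.67. The part of the 3' end in the size of the change was not tested.

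**Figure D2:**
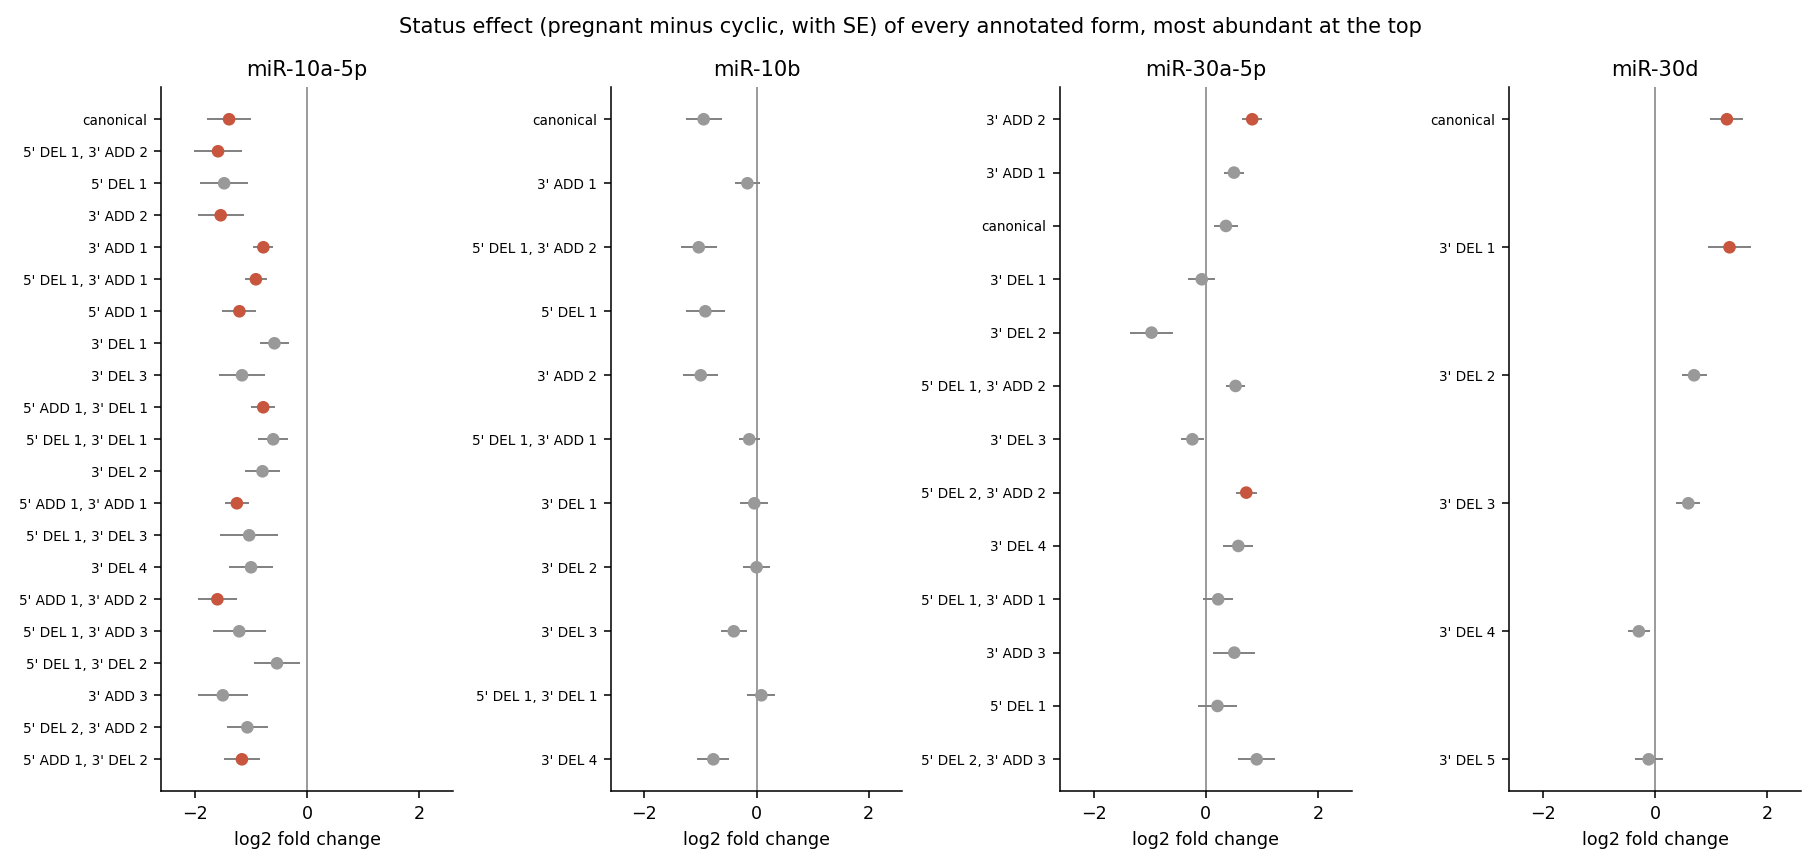
Day-adjusted log2FC (P minus C) with SE of every annotated form of miR-10a-5p, miR-10b, miR-30a-5p and miR-30d, from the most abundant form at the top, with forms of adjusted p under 0.05 in red. All 21 miR-10a-5p forms lie left of 0, none of the 11 miR-10b forms is red, and 10 of 13 miR-30a-5p forms lie right of 0.

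The list of miR-10 and miR-196 held 37 sequences, of which 10 passed, all lower, against 1.6% passing lower among all sequences. At an unadjusted p under 0.05, 27 were lower and 0 higher, against 9.62% and 9.28% of all. Only 2 were above 0, against 50.5% of all, with a median log2FC of -0.91 (-0.93, -1.04 and -0.87 on D12, D16 and D20). Without PD20 replicate 1, the list had 5 sequences that passed. The miR-196 sequences of the list, annotated as miR-196b, had none that passed.

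Within the miR-30 family, known in epithelia and in the control of differentiation, forms of miR-30a-5p and miR-30d were higher in P. Summed over forms, miR-30a (log2FC 0.59, adjusted p = 0.0174) and miR-30d (log2FC 1.03, adjusted p = 0.0174) passed, while miR-30c (log2FC 0.28, adjusted p = 0.271), miR-30b (log2FC 0.048, adjusted p = 0.902) and miR-30e (log2FC 0.011, adjusted p = 0.987) did not, with no test of the differences between them. Its members lie in pairs, MIR30A beside MIR30C-2 and MIR30D beside MIR30B in Sscrofa11.1. Of 53 sequences 4 passed, all higher, against 1.15% passing higher among all tested. At an unadjusted p under 0.05, 18 were higher, against 81 (9.28%) among all tested, and 2 lower, against 9.62%. Above 0 were 44, against 50.5% of all, with a median log2FC of 0.42 against 0.0062 for all sequences. The sum of the family was 44578 ± 10042 CPM in P and 27921 ± 6630 CPM in C. miR-30a-5p 3' ADD 2, its most abundant sequence, ranged from 11590 to 28279 CPM in P (median 16689) and from 5837 to 14425 CPM in C (median 9350). All 16 P libraries were above the cyclic median of their day, although the ranges overlapped between 11590 and 14425 CPM. Its log2FC was 0.83 (SE 0.18, adjusted p = 0.0109), with 0.62 on D12, 0.73 on D16 and 1.09 on D20.

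miR-30d ranged from 2449 to 19652 CPM in P (median 5639) and from 626 to 9248 CPM in C (median 2314). On D12 its lowest P library, at 2638 CPM, was above the highest C library, at 2389 CPM, and on the later days the groups overlapped. Its log2FC was 1.28 (SE 0.29, adjusted p = 0.0126), with 1.47, 0.89 and 1.47 on the 3 days, and without a day term its adjusted p was 0.0763. miR-30d 3' DEL 1 had 3181 ± 3116 CPM in P and 1404 ± 1397 CPM in C (log2FC 1.32, adjusted p = 0.0470), a call kept in 11 of 30 fits that left out 1 library. The seed-shifted miR-30a-5p 5' DEL 2, 3' ADD 2 was rare, at 24.4 ± 7.46 CPM in P and 14.8 ± 3.58 CPM in C (log2FC 0.72, adjusted p = 0.0230). Not all forms had this direction, as canonical miR-30a-5p had a log2FC of 0.36 (adjusted p = 0.387) and miR-30a-5p 3' DEL 2 one of -0.97 (adjusted p = 0.169).

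miR-205, a miRNA of stratified and basal epithelia, was lower in P by an amount that depended on the day. It was read at low levels, between 0 and 10.3 CPM in P (median 1.62) and between 0.512 and 27.4 CPM in C (median 8.73). On D12 the groups overlapped, with medians of 3.53 CPM in PD12 and 2.05 CPM in CD12. On D16 the medians were 1.55 CPM in P and 11.6 CPM in C with an overlap at the edge, and on D20 every P library, at most 1.77 CPM, was below every C library, at least 7.24 CPM. The day-adjusted log2FC was -2.35 (SE 0.59, adjusted p = 0.0230), made up of 0.87 on D12, -2.67 on D16 and -4.88 on D20. It missed the threshold over all deposited sequences (adjusted p = 0.0573), without D16 (adjusted p = 0.146), and without PD20 replicate 1 or CD16 replicate 3. In the edgeR quasi-likelihood F-test of the status by day interaction it was the single sequence that passed (0.115% of all) with an adjusted p of 0.0281, which was over 0.05 when any of 8 single libraries was left out. The forms 3' DEL 1 (log2FC -1.78, adjusted p = 0.0230) and 3' ADD 1 (log2FC -1.67, adjusted p = 0.0235) were lower too, and none of the 3 passed without D20.

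miR-302, named for its cluster in pluripotent cells, was a D20 result alone. PD20 libraries held 7, 4, 11, 117, 48 and 121 reads of it, CD20 libraries 2, 0, 0, 0 and 1, and the 19 libraries of D12 and D16 held 0. The 3 highest PD20 libraries stood far above the other 3, and no PD20 library overlapped with CD20. Its adjusted p was 0.0109 (edgeR quasi-likelihood F-test), but 0.442 with DESeq2 and 0.9998 with the days weighted equally. Against a floor of 3 reads per cyclic library, P was at least 5.29-fold higher over all days. On D20, the only day with reads, P was at least 13.3-fold higher. Both bounds rest mainly on the 3 highest PD20 libraries. miR-302 was the only member of the embryonic list (miR-302, miR-367 and the miR-371 to miR-373 group) among the annotated sequences. D20 tissue of pregnant animals came from implantation sites, and endometrial and residual conceptus RNA cannot be told apart in these libraries.

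**Figure D3:**
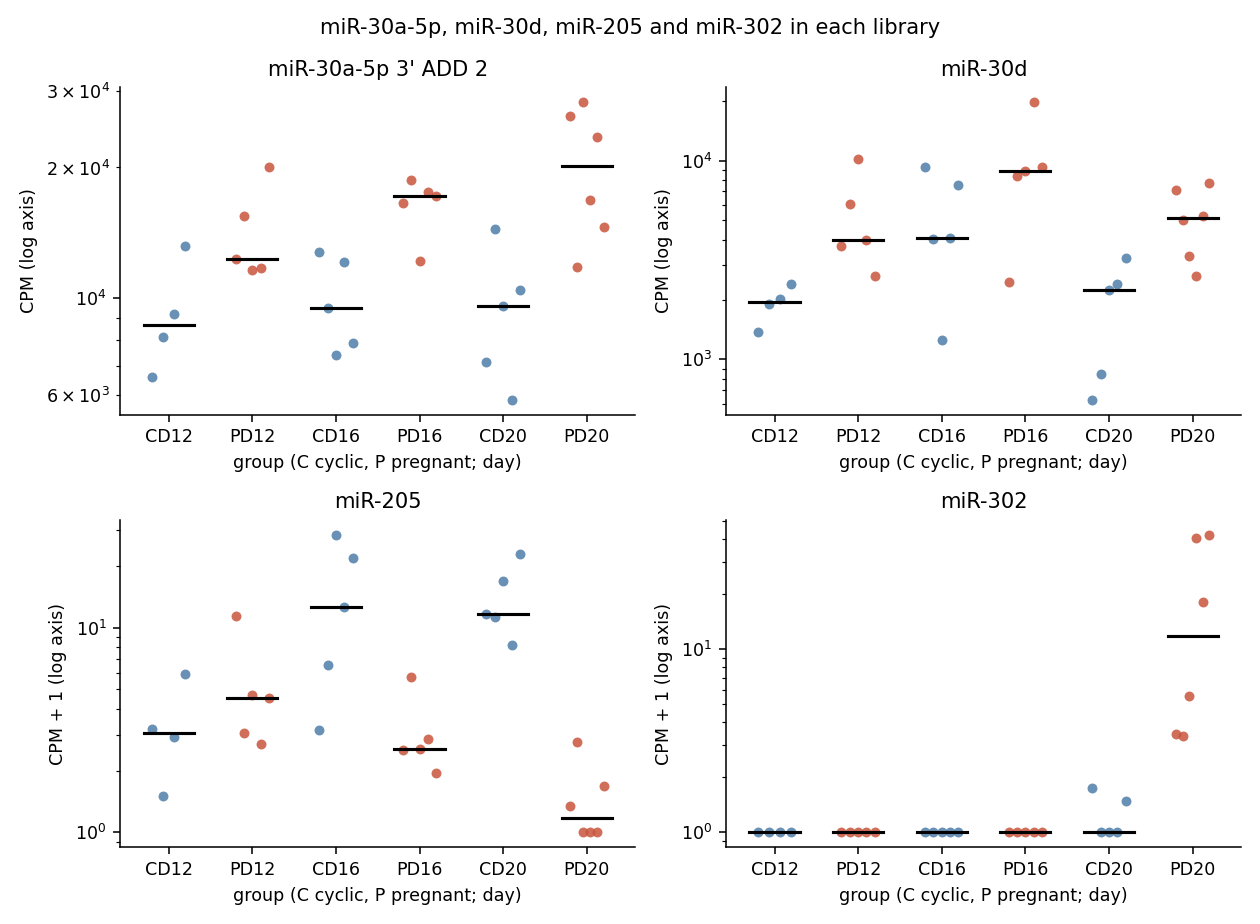
Level of miR-30 family forms, miR-205 and miR-302 in each library, in CPM on a log axis (CPM + 1 where libraries hold 0 reads), by group, with 1 point per library. The miR-30a-5p form is higher in P on each day, miR-205 separates the C from the P libraries on D20, and miR-302 is seen in the PD20 libraries.

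The genes of miR-23a, miR-27a and miR-24-1 are neighbours in Sscrofa11.1 and are known to be made from 1 transcript. miR-27a was lower in P, and a short form of miR-23a was higher. miR-27a ranged from 41.1 to 288 CPM in P (median 111) and from 94.1 to 1389 CPM in C (median 226), and its log2FC was -1.26 (SE 0.35, adjusted p = 0.0406). By day its log2FC was -0.81 on D12, -0.13 on D16 and -2.64 on D20, although the status by day interaction did not pass for it. Its adjusted p for status was 0.702 without D20. It missed the threshold in 15 of 30 fits that left out 1 library, and also with library size from all deposited reads (adjusted p = 0.118), over all deposited sequences (adjusted p = 0.100) and with a term for the title number (adjusted p = 0.0578). miR-23a 3' DEL 2, a 19 nt form assigned to miR-23a alone, ranged from 0.641 to 22.5 CPM in P (median 10.4) and from 0 to 9.47 CPM in C (median 2.70), with a log2FC of 1.58 (SE 0.40, adjusted p = 0.0235). The groups overlapped, and 12 of 16 P libraries were above the cyclic median of their day. miR-23a 3' DEL 3, an 18 nt form that the study's list gives to both miR-23a and miR-23b and so cannot be placed at 1 gene, ranged from 1.25 to 33.7 CPM in P (median 9.76) and from 0.472 to 6.68 CPM in C (median 3.07), with a log2FC of 1.76 (SE 0.39, adjusted p = 0.0115). miR-23a 3' DEL 1 had a log2FC of 0.97 (adjusted p = 0.0767) and the canonical form 0.12 (adjusted p = 0.759). The 20 nt form of mir-181a-1 was higher (log2FC 1.59, adjusted p = 0.0230), at 13.3 ± 11.8 CPM in P and 4.18 ± 2.84 CPM in C. rno-miR-200c-3p, a form of the epithelial miR-200c, had 68.1 ± 29 CPM in P and 39.1 ± 27.6 CPM in C (log2FC 0.97, adjusted p = 0.0230, or 0.149 without a day term), and 15 of 16 P libraries were above the cyclic median of their day.

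The 3 days did not contribute equally. Of the 24 sequences 21 had a log2FC of 1 sign on all 3 days, as did 256 of all 873 (29.3%), and the exceptions were miR-302, miR-205 and miR-205 3' ADD 1. The days enter the same fit as the status effect, so this count adds no support to it. Tested alone with the edgeR quasi-likelihood F-test, D12 and D16 gave 0 called sequences, with 53 and 95 at an unadjusted p under 0.05, and D20 gave 13. The other factor of the fit, day, tested over 2 terms where status has 1, had an adjusted p under 0.05 for 53 sequences (6.07%), of which 38 (4.35% of all) also changed by more than 1 on the log2 scale from D12 to D16 or D20.

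**Figure D4:**
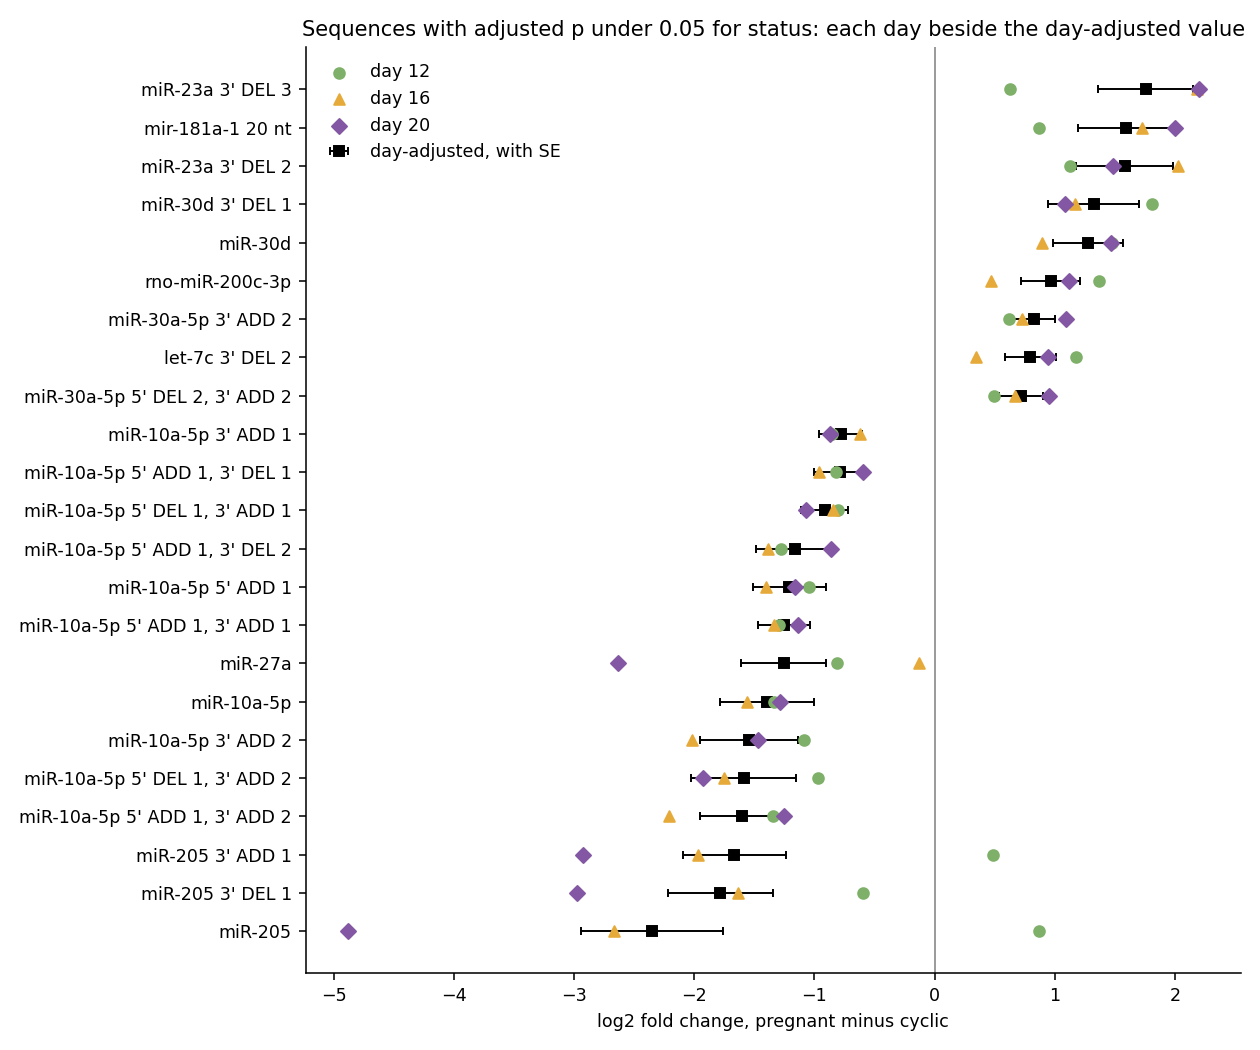
log2FC (P minus C) of the sequences with adjusted p under 0.05 for status, on D12, D16 and D20 beside the day-adjusted value, without miR-302, which was not read on D12 and D16. The miR-10a-5p and miR-30 forms keep their side of 0 on each day, while miR-205 goes from 0.87 on D12 to -4.88 on D20.

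Counts were also summed over sequences with the same seed. Of 258 seeds, 3 were called (1.16%) and 5 had an adjusted p under 0.05 (1.94%). The seed GTAAACA, with 25 sequences of the miR-30 family, ranged from 27123 to 59725 CPM in P (median 41028) and from 14990 to 37734 CPM in C (median 25442). P was higher with an overlap of the ranges, and the log2FC was 0.66 (SE 0.15, adjusted p = 0.00618). The shifted miR-30 seed AAACATC was higher by 0.72 (adjusted p = 0.0208). The canonical miR-10 seed ACCCTGT, with 15 sequences of miR-10a-5p and miR-10b, had a log2FC of -1.05 (adjusted p = 0.0932) and the seed CCCTGTA of the forms without the first base one of -1.10 (adjusted p = 0.0707). Only the seed TACCCTG of the 5 forms extended by 1 base at the 5' end passed among the miR-10a-5p seeds, at 356 ± 232 CPM in P and 815 ± 541 CPM in C (log2FC -1.17, SE 0.30, adjusted p = 0.0208). This seed missed the threshold with library size from all deposited reads (adjusted p = 0.0596), without D12 (0.0923), without D16 (0.0985) and without D20 (0.232). The fourth, CCTGTAG, with the 1 form 5' DEL 2, 3' ADD 2, had a log2FC of -1.07 (adjusted p = 0.142). The other 2 that passed were the seed of miR-205, CCTTCAT (log2FC -1.89, adjusted p = 0.00618), and the seed of miR-302, AAACGTG (adjusted p = 0.00618). The differences between the miR-10 seeds were not tested.

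Most of the abundant miRNAs did not pass. miR-21, the most abundant sequence, had a log2FC of 0.25 (adjusted p = 0.622), and all 18 sequences of miR-21 were above 0, with a median of 0.31 and 2 higher at an unadjusted p under 0.05 (9.28% of all sequences). miR-143-3p, of smooth muscle and stroma, had a log2FC of 0.02 (adjusted p = 0.973), or -0.37 (adjusted p = 0.306) without PD20 replicate 1, and the most abundant let-7f sequence 0.07 (adjusted p = 0.839). miR-148a-3p had 0.15 (adjusted p = 0.785), miR-27b-3p -0.69 (adjusted p = 0.131) and miR-99a 3' DEL 1 -0.50 (adjusted p = 0.525). miR-127 3' DEL 2, from the imprinted DLK1-DIO3 region, had 0.93 (adjusted p = 0.0945), and the median of the 42 sequences of that region was -0.000875.

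Lists of miRNAs known from single cell types were read beside these changes. The epithelial miR-200 family, a check of the labelled tissue, was read in both groups, with a sum of 11099 ± 2351 CPM in P and 9777 ± 3425 CPM in C. Its 31 sequences had a median log2FC of -0.10, with 1 passing, higher, against 1.15% of all sequences. At an unadjusted p under 0.05, 3 were higher and 4 lower, a threshold at which 9.28% of all sequences were higher and 9.62% lower. The 20 sequences of the miR-183 cluster had a median of 0.42, with 5 higher at an unadjusted p under 0.05 (9.28% of all sequences) and none past the adjusted threshold. Without PD20 replicate 1 the cluster's median was 0.38, and 2 were higher at an unadjusted p under 0.05. The 16 sequences of miR-203 and miR-205 had a median of 0.66, with 6 higher and 3 lower at an unadjusted p under 0.05 (9.28% and 9.62% of all sequences), the lower ones all miR-205. The sum of the miR-183 cluster was 7092 ± 3337 CPM in P and 5532 ± 2300 CPM in C. That of miR-203 and miR-205 was 1374 ± 1393 CPM in P and 777 ± 721 CPM in C. Mean sums of these epithelial lists were thus higher in P, with no test of the sums. Their sequences went both ways, with 13 of 31, 16 of 20 and 12 of 16 above 0, against 50.5% of all.

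Of the other cell types, the 16 erythrocyte sequences (miR-451, miR-144 and miR-486) had a median log2FC of 0.48, 3 higher at an unadjusted p under 0.05 (9.28% of all sequences), and a sum of 1640 ± 1052 CPM in P and 1178 ± 688 CPM in C, with miR-451 3' DEL 1 the most abundant (log2FC 0.49, adjusted p = 0.443). Without PD20 replicate 1 the list's median was 0.42, and 1 was higher at an unadjusted p under 0.05. The 17 miR-126 sequences of endothelium had a median of 0.02 and a sum of 3540 ± 536 CPM in P and 3530 ± 1016 CPM in C. The 23 stromal miR-199 and miR-214 sequences had a median of -0.14 with 4 lower at an unadjusted p under 0.05 (9.62% of all sequences), or 2 lower without PD20 replicate 1. The 31 miR-143 and miR-145 sequences had a median of -0.03, made up of -0.18 on D12, -0.76 on D16 and 0.84 on D20. Without PD20 replicate 1, at 636004 CPM for the miR-143 and miR-145 list, its median was -0.31, with 0 sequences past the adjusted threshold (edgeR quasi-likelihood F-test). At an unadjusted p under 0.05, 7 of 31 were then lower and 0 higher. In that fit 157 of all 873 sequences were at this threshold in either direction. The range of the other P libraries was 64729 to 138143 CPM. The 9 leukocyte sequences had a median of 0.11 and the 8 muscle sequences one of 0.20, with muscle sums of 5483 ± 9508 CPM in P and 3717 ± 4237 CPM in C. The P mean was carried by PD20 replicate 1, at 40186 CPM, and the C mean rested in part on CD16 replicate 5, at 16765 CPM. Without PD20 replicate 1 the muscle sum was 3170 ± 2260 CPM in P, and the median log2FC -0.27, and without CD16 replicate 5 the sum was 2714 ± 2041 CPM in C, so the order of the means turned on which libraries were kept. None of the sequences of these 6 lists passed, with or without PD20 replicate 1. Leaving out these libraries from the lists was chosen after seeing the data. The part of cell composition in the changes of miR-10a-5p, miR-30 and miR-205 was not tested.

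**Figure D5:**
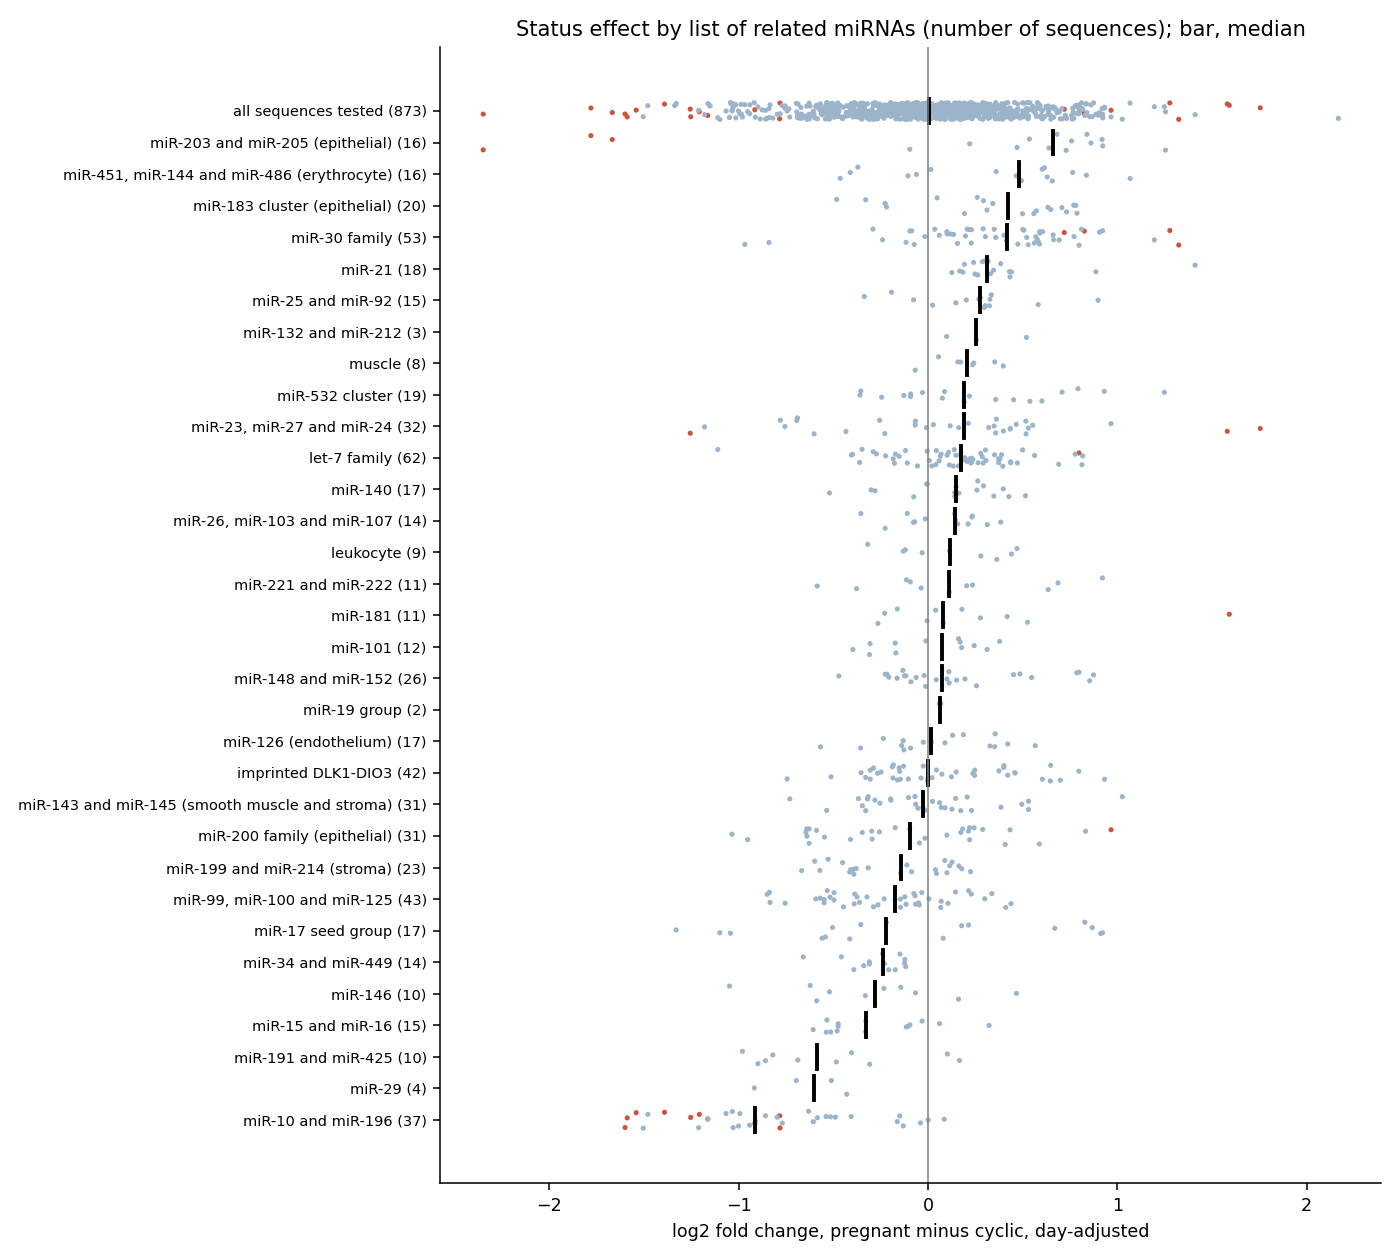
Day-adjusted log2FC (P minus C) of every sequence of each list of related miRNAs, with the number of sequences in parentheses, the list's median as a bar and sequences of adjusted p under 0.05 in red. The miR-10 and miR-196 list lies almost wholly below 0 (median -0.91) and the miR-30 list mostly above 0 (median 0.42), while the lists of miR-126 (median 0.02) and of miR-143 and miR-145 (median -0.03, or -0.31 without PD20 replicate 1) lie closer to 0.

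Among the remaining lists, let-7 had a median of 0.17. At an unadjusted p under 0.05, 6 of its 62 sequences were higher and 1 lower (9.28% and 9.62% of all sequences). The 1 of 62 to pass, against 1.15% of all sequences passing higher, was let-7c 3' DEL 2. It was at 14.5 ± 5.18 CPM in P and 8.86 ± 3.99 CPM in C (log2FC 0.80, adjusted p = 0.0343). The 10 sequences of miR-191 and miR-425 had a median of -0.59 and the 4 of miR-29 one of -0.60, with 4 and 2 lower at an unadjusted p under 0.05 (9.62% of all sequences). The 19 sequences of the miR-532 cluster had a median of 0.19 with 5 higher at an unadjusted p under 0.05 (9.28% of all sequences). None of these last 3 lists had a sequence that passed.

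P and C libraries differed slightly as libraries. Among all deposited reads, annotated or not, the share of 22 nt was 48.2% ± 2.98 in P (SD, n = 16) and 51.5% ± 3.22 in C (SD, n = 14). The day-adjusted difference was -3.22 percentage points (two-sided permutation test within day, p = 0.00691, adjusted over 4 measures p = 0.0276). The mean read length was 22.41 ± 0.12 nt in P and 22.31 ± 0.09 nt in C (adjusted p = 0.0489, permutation test), a call lost in 18 of the 30 fits that left out 1 library, as was that of the 22 nt share in 6. Forms of miR-10a-5p and miR-10b, many of them 22 nt, made up 8.74% ± 6.37 of P and 17% ± 10.1 of C reads. Without these 32 sequences, an alternative chosen after seeing the data, the 22 nt share was 45.6% in P and 46.5% in C (adjusted permutation p = 0.560). The share of reads on annotated sequences (adjusted permutation p = 0.336) and of the 10 most abundant sequences (adjusted permutation p = 0.895) did not pass.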

How the data were processed

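Small RNA of porcine endometrium was sequenced in 30 libraries. The authors prepared them with adapter ligation from total RNA, joined the reads of 2 runs, removed adapters and collapsed identical reads, and deposited for each library the raw counts of each distinct sequence, without unique molecular identifiers, so that counting error alone does not cover amplification. Annotation had been made by the study against Sscrofa10.2 and miRBase. Counts of the 873 annotated sequences were joined by exact match, and isomiRs were named by the bases added or lost at each end. The RefSeq names of neighbouring genes came from Sscrofa11.1, and no coordinates were used.

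A negative binomial model with day and status was fitted in edgeR 4.0.16 (R 4.3.3, limma 3.58.1) with TMM scaling and a prior count of 0.125. The quasi-likelihood F-test with Benjamini-Hochberg adjustment over all 873 sequences gave the adjusted p, and a sequence passed at an adjusted p under 0.05 and was called if its absolute log2FC was also over 1. SE is the log2FC divided by the root of its F statistic. Interaction, day and seed sums used the same test. Library measures used 100000 permutations of status within day. Animals were the replicates, and the replicate numbers of the labels pair no animals by design. P-values measure the spread between animals. A fold against a group with 3 reads or fewer in every library was computed from a floor of 3 reads per library.

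Named sequences were the 8 of lowest p that passed in each direction, the called sequences, at most 10 of largest absolute log2FC in each direction, the most abundant of each list, the 4 of lowest interaction p, those measured by RT-PCR in the study and the seeds of lowest p. The members, lists and tests were chosen with earlier results of these data known. In simulated counts of the status effect, 873 sequences with 200 changed, between 64% and 80% of 2-fold and between 98% and 100% of 4-fold changes were recovered, and between 1.74% and 7.73% of calls were false. These shares hold for 200 changed sequences, more than the 24 that passed in the data, and were not measured for fewer. Alternatives were the likelihood ratio test, DESeq2 1.42.0, RLE scaling, library size from all deposited reads, a minimum of 10 CPM, all deposited sequences of at least 10 reads, counts summed by miRNA name, other day terms, subsets of days, further terms for replicate number and title number, and each library left out in turn. The sequencing pools of the labels' protocols are not tied to single libraries in the sources used here.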

Additional observations from a re-analysis of the deposited data

Results flagged for a closer look

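In 168 groups of libraries, 17 held a library far from the others of its group by Dixon's criterion. The criterion's rate of about 1 in 20 assumes normal values and independent groups. CPM was not log-scaled and forms of 1 miRNA share libraries, so the count is not set against chance. The groups were 6 for each of 4 library measures and 24 sequences, namely 21 of those that passed and 3 of low interaction p that did not (miR-16 3' ADD 1 23 nt form 1, miR-10b 3' DEL 1 and bta-miR-495). PD16 replicate 1 was the highest of its group for canonical miR-10a-5p (106216 CPM, the others 8279 to 19777), miR-10a-5p 5' ADD 1 (825 CPM, the others 146 to 221), miR-10a-5p 3' ADD 2 (8070 CPM, the others 581 to 1683) and miR-10a-5p 5' DEL 1, 3' ADD 2 (12304 CPM, the others 680 to 2316). CD16 replicate 3 was the highest for miR-10a-5p 3' ADD 2 (24202 CPM, the others 4404 to 7428) and 5' DEL 1, 3' ADD 2 (27372 CPM, the others 5462 to 10751). PD20 replicate 4 was the highest for canonical miR-10a-5p (59816 CPM, the others 9134 to 25716), miR-10a-5p 5' DEL 1, 3' ADD 2 (4864 CPM, the others 542 to 1826) and miR-27a (212 CPM, the others 41.1 to 98.7). The forms 3' ADD 1, 5' DEL 1, 3' ADD 1 and 5' ADD 1, 3' ADD 1 of miR-10a-5p had no such library in any group.

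PD12 replicate 1 was high for miR-205 (10.3 CPM, the others 1.70 to 3.70) and miR-205 3' DEL 1 (13.1 CPM, the others 0.462 to 2.56), and PD16 replicate 2 for miR-205 (4.72 CPM, the others 0.952 to 1.86). PD12 replicate 3 was high for miR-23a 3' DEL 3 (14.3 CPM, the others 1.25 to 2.56) and miR-23a 3' DEL 2 (11.5 CPM, the others 0.641 to 3.78) and low in its share of 22 nt reads (44.3%, the others 47.7% to 48.8%). CD12 replicate 1 was low for miR-30a-5p 5' DEL 2, 3' ADD 2 (9.31 CPM, the others 18.7 to 20.2), and CD12 replicate 3 was high for miR-16 3' ADD 1 23 nt form 1 (74.1 CPM, the others 14.8 to 24.7).

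The P minus C difference changed between days for miR-205 (interaction adjusted p = 0.0281, edgeR quasi-likelihood F-test). This adjusted p was between 0.0530 and 0.0877 without PD12 replicate 1, PD20 replicate 1, 3 or 5, CD12 replicate 1, 2 or 3, or CD20 replicate 5. Among seed sums the interaction passed for 6 seeds, given here with the log2FC on D12, D16 and D20. The seed of miR-205, CCTTCAT, had 0.17, -2.15 and -3.13 (adjusted p = 0.0384). The seed AACAGTC of mir-212 had 2.14, 0.97 and -1.03 (adjusted p = 0.0347), and AGTAGAC of mir-411 had 0.37, 0.39 and -1.30 (adjusted p = 0.0347). CCCCCAG of mir-361 had 1.04, -0.60 and 1.18 (adjusted p = 0.0347), ACCACAG of miR-140-3p had -0.61, -0.24 and 1.41 (adjusted p = 0.0362), and TAATGCT of mir-155 had -0.32, 1.10 and -1.01 (adjusted p = 0.0384).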

How the results depend on the processing

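Against 17 called sequences, the likelihood ratio test of edgeR called 26, DESeq2 29 (16 shared), library size from all deposited reads 8, a minimum of 10 CPM 8 of 548, all deposited sequences 26 of 3577 (5 shared), counts summed by name 4 of 190, and a term for runs of the title number 11. Without D20 1 was called, on D12 alone and D16 alone 0, and with no fold minimum 24. Single libraries left out gave 5 to 35. The count was 11 without PD12 replicate 2 or 3, PD20 replicate 2, CD12 replicate 1, or CD20 replicate 2 or 3, 9 without PD16 replicate 2 or PD20 replicate 1, 10 without PD16 replicate 4, 5 without CD16 replicate 3, 27 without PD12 replicate 5 and 35 without PD16 replicate 1. In all 30 of these fits 8 of the 24 sequences passed, miR-302, miR-30d, miR-30a-5p 3' ADD 2, miR-23a 3' DEL 3 and 4 forms of miR-10a-5p (3' ADD 1, 5' DEL 1, 3' ADD 1 and 5' ADD 1 with 3' ADD 1 or 2). The other 16 did not pass without CD16 replicate 3, and canonical miR-10a-5p and miR-30d 3' DEL 1 passed in 11 fits, miR-27a in 15. On D12 alone miR-205 was at 0.88 and miR-205 3' ADD 1 at 0.50, above 0. miR-302 has no value on D12, on D16 or without D20. The cause of these changes was not tested.

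The status by day interaction passed for 1 sequence, for 44 with the likelihood ratio test, 0 with a minimum of 10 CPM, which removed miR-205 itself (101 at an unadjusted p under 0.05), 12 with library size from all deposited reads, and 0 to 10 with a library left out. The day effect (53) gave 120, 35, 46 and 28 to 94 in the same order, and fewer sequences than status at an adjusted p under 0.05 without PD12 replicate 5 (29 and 36) or CD20 replicate 4 (31 and 32). Of the seeds (3) 5 were called with the likelihood ratio test, 5 with no fold minimum, 0 without D20 and 2 to 5 with a library left out. The 22 nt difference was -2.62 without D12, -3.17 without D20 and -0.81 without miR-10 reads, and the mean length difference 0.109, 0.0909 and 0.0885 nt without D12, D16 and D20 and 0.0891 nt without miR-10 reads, none of them past the threshold. With a library left out they were -3.66 to -2.75 points and 0.0814 to 0.112 nt. The 22 nt share then missed the threshold without PD12 replicate 3, PD16 replicate 4, CD12 replicate 1 or 4, CD16 replicate 3 or CD20 replicate 3 (adjusted p 0.0501 to 0.0545), and the mean length in 18 of 30 fits (adjusted p 0.0519 to 0.0954), all but those without PD12 replicate 2 or 4, PD16 replicate 1, 2 or 3, PD20 replicate 1 or 4, CD12 replicate 3, CD16 replicate 1 or 2, or CD20 replicate 4 or 5. The ranges were -1.43 to -0.52 points for the annotated share and -0.47 to 0.98 points for the top 10 share.

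The replicate number as a block left 3 called sequences and 6 with an adjusted p under 0.05 (124 at an unadjusted p under 0.05), 0 for the interaction (miR-205 adjusted p = 0.115), 31 for day and 3 seeds. Over 70 pairs of libraries with the same number the correlation of deviations ran from -0.616 to 0.632 (median -0.0423), and 8 libraries correlated best with their own number. No chance rate was computed for this count, so it cannot tell whether libraries of a number share a processing step.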

Other observations

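Summed over all forms of a name, 6 of 190 miRNAs had an adjusted p under 0.05 for status, of which miR-429 of the miR-200 family was not among the single sequences that passed. Its sum had a log2FC of -0.84 (adjusted p = 0.0331, edgeR quasi-likelihood F-test), and its canonical sequence was at 16.7 ± 11.2 CPM in P (SD, n = 16) and 32.3 ± 21.7 CPM in C (SD, n = 14), with a log2FC of -0.95 (adjusted p = 0.0545). On D12, D16 and D20 the canonical sequence had -0.92, -0.14 and -1.69. It went the opposite way to rno-miR-200c-3p of the same family, and the difference between the pair was not tested. Both were named here after their values were seen. The sum of mir-10a was lower (log2FC -1.42, adjusted p = 0.0271).

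The 23 nt form of mir-144, made in erythroid cells, was at 96.8 ± 61.7 CPM in P and 47.6 ± 26.1 CPM in C, with a log2FC of 1.07 (adjusted p = 0.0545), and 14 of 16 P libraries were above the cyclic median of their day. The sum of the erythrocyte list had overlapping ranges, and its part in other differences was not tested.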
